A study of Homo sapiens with 6 samples.

Results

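Checkpoint and adhesion ligands, the surface proteins that leukocytes read on another cell, were followed as transcripts in T24, a human cell line from a bladder carcinoma. The 10 genes, chosen by name, were CD274, PDCD1LG2, CD276, PVR, NECTIN2, CD47, CD83, ICAM1, CD58 and MICA, matched by Ensembl identifier, and all 10 were among the 37871 genes listed and among the 19170 with enough counts to be tested. RNA was sequenced from 3 libraries of T24 cells given LPS plus nigericin and from 3 libraries of T24 cells given vehicle. TLR4 senses LPS, which comes from the outer membrane of bacteria, and nigericin lets potassium leave the cell, a trigger of the NLRP3 inflammasome. No group received LPS alone or nigericin alone, so a difference cannot be assigned to either agent. Doses and treatment times were not stated in the labels. Whether each library had its own culture is not stated either, so p-values measure the spread between libraries, which may be technical. RNA was measured, not protein at the surface.

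These proteins work as pairs with receptors on T cells, natural killer cells and phagocytes. PD-L1 (CD274) and PD-L2 (PDCD1LG2) engage PD-1 and restrain T cells, and B7-H3 (CD276) is a B7 relative whose receptor is not settled. PVR and NECTIN2 share an activating receptor, DNAM-1, and inhibitory receptors that include TIGIT. CD47 binds SIRP-alpha on phagocytes and restrains engulfment, and MICA is a stress-inducible ligand of the activating receptor NKG2D. ICAM1 binds the leukocyte integrins LFA-1 and Mac-1, CD58 binds CD2 on T cells and natural killer cells, and CD83 marks mature dendritic cells. ICAM1 and CD83 are textbook targets of NF-kB, and CD274 is a textbook target of interferon signalling through IRF1.

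The libraries held 66180407 to 86594539 counts after LPS plus nigericin and 81917343 to 89152224 counts in vehicle. For transcripts of a few counts, such as LYZ and ICAM4, counting error is large as well as the spread between libraries. Levels are CPM, the depth-scaled count of a library with TMM scaling, and adjusted p-values are from edgeR's quasi-likelihood test with Benjamini-Hochberg adjustment over all tested genes. Changes are log2 fold changes of LPS plus nigericin over vehicle with their standard error (SE). Keratin transcripts, markers of epithelial cells, were abundant. KRT8 was at 1387 ± 152 CPM in treated and 2710 ± 495 CPM in vehicle libraries, and KRT18 at 471 ± 66.9 CPM in treated and 1536 ± 273 CPM in vehicle libraries (SD, n = 3 each; edgeR adjusted p = 0.00181 and 1.96e-04). CDH1, the E-cadherin gene, was at 0 in 5 of 6 libraries and reached 0.0714 CPM in the other. Of 8 epithelial and T24 markers chosen, 7 were tested, with 0 called higher and 5 lower (28.9% and 26.4% of all tested genes). With GC and length offsets, described below, 1 was higher and 4 lower, and KRT7 was at 0.08 (edgeR adjusted p = 0.383). EPCAM (2.89 CPM in treated, 1.93 CPM in vehicle, log2 fold change 0.59) and VIM (75.3 and 89.7 CPM, -0.25) were not called without the offsets. Of 12 leukocyte marker genes chosen, 9 were analysed here, and CD3D was at 0 in every library and PTPRC, the CD45 gene, in 5 of 6. Their summed level was 3.72 to 4.91 CPM in treated and 3.10 to 4.98 CPM in vehicle libraries, mostly CD14. One of them, LYZ, the lysozyme gene, rose to 0.673 ± 0.113 CPM after treatment, against 0.0671 ± 0.0812 CPM in vehicle (log2 fold change 3.34, SE 0.931, edgeR adjusted p = 0.0164), on 4, 12 and 0 counts in the vehicle libraries. Its adjusted p was 0.0580 without vehicle library 1 and 0.0588 without treated library 1, and its log2 fold change was 4.84 without vehicle library 2, 2.74 without vehicle library 3 and 4.32 with limma-voom. The part of other cells in the results below was not tested.

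Of the 10 ligand genes, 5 rose after LPS plus nigericin (CD274, PVR, CD47, CD83 and ICAM1) and 0 fell, where 55.3% of all tested genes were called, 28.9% higher and 26.4% lower. CD58 was the 1 further gene under 0.05 before adjustment in edgeR's test, and the 1 gene that DESeq2 called lower. The rise was at least 2-fold for CD47, CD83 and ICAM1, as for 17.8% of tested genes. The treated and vehicle libraries did not overlap for 6 of the 10 (the 5 that rose, and CD58, which lay below), as for 67.0% of tested genes, 35.0% with the treated libraries above and 32.0% with them below. The median log2 fold change was 0.32 over the 10 genes and 0.0016 over all tested genes. A fit with offsets for the GC content and length of transcripts, described after the single genes, changed the calls of CD274, CD47, CD276, NECTIN2 and CD58.

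**Figure D1:**
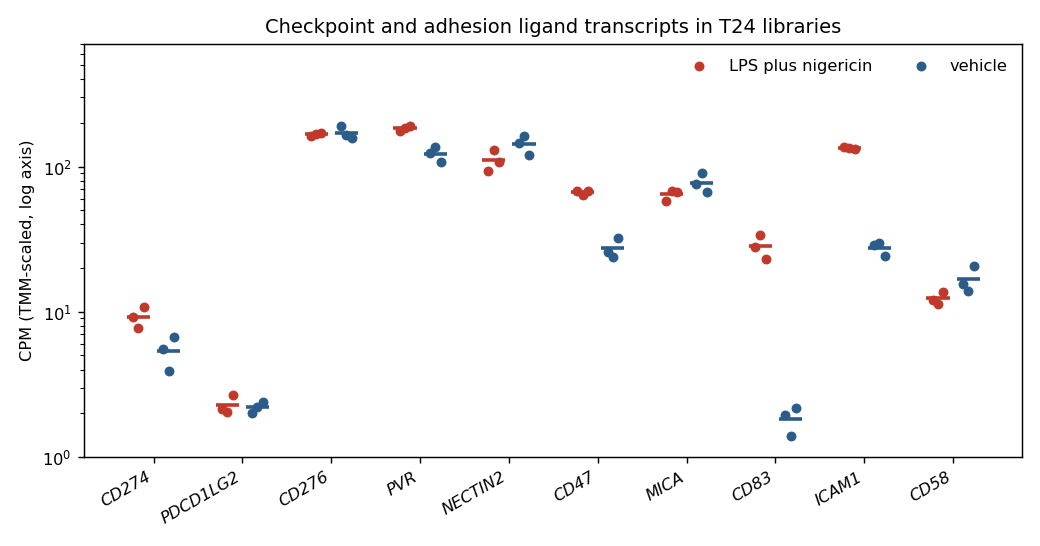
CPM of each ligand gene in every library (points, log axis), with the LPS plus nigericin libraries left of the vehicle libraries and horizontal lines at the group means. CD83 and ICAM1 stand furthest apart, with CD83 at a mean of 28.2 CPM after LPS plus nigericin and 1.84 CPM in vehicle, and ICAM1 at 134 CPM after LPS plus nigericin and 27.7 CPM in vehicle, while PDCD1LG2 and CD276 overlap.

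ICAM1 and CD83 moved furthest. ICAM1 (ENSG00000090339) was at 136, 134 and 133 CPM in treated libraries, against 28.8, 29.9 and 24.4 CPM in vehicle libraries. Every treated library was thus far above every vehicle library, and the treated libraries barely differed from each other. The change was 4.86-fold (log2 fold change 2.28, SE 0.120, edgeR adjusted p = 2.51e-05). CD83 (ENSG00000112149) was at 28.0, 33.7 and 23.0 CPM in treated libraries, against 1.94, 1.39 and 2.18 CPM in vehicle libraries. Having been the lowest of the 10 genes per unit length in vehicle cells, CD83 stood in the middle of their order after treatment, with a 15.3-fold rise (log2 fold change 3.94, SE 0.237, edgeR adjusted p = 3.56e-05). CD58 did not pass. It was at 12.0, 11.4 and 13.7 CPM in treated libraries, against 15.6, 13.9 and 20.7 CPM in vehicle libraries (log2 fold change -0.44, SE 0.181, edgeR adjusted p = 0.0704). Without vehicle library 2 it was called lower (-0.56, edgeR adjusted p = 0.0173), as with the offsets (-0.81, edgeR adjusted p = 8.68e-04). Every treated library lay below every vehicle library. Within each library the log2 ratio of ICAM1 to CD58, which no library scaling can alter, averaged 3.45 ± 0.146 in treated and 0.74 ± 0.451 in vehicle libraries (SD, n = 3 each; difference 2.71, SE 0.274). Its exact two-sided permutation p was 0.1, the smallest that 3 against 3 libraries allow, and 0.133 adjusted over 4 such ratios. Offsets for GC content and length, which differ between genes, can alter such a ratio. With them ICAM1 was at 2.67 and CD58 at -0.81.

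The promoter windows of ICAM1, CD83 and CD274 are shown because ICAM1 and CD83 rose most and the CD274 window holds the interferon-type motifs. Each is the 250 bases before the RefSeq gene start on GRCh38.p14, written 5′ to 3′ on the gene's strand, which is the plus strand for all 3. GENCODE 29 starts ICAM1 at 10270835 and CD274 at 5450503, so its starts differ from those used here. Capitals mark matches, on either strand, to GAAA repeated after any 2 bases (the core of an interferon-stimulated response element, ISRE), to TTC and GAA with any 3 bases between (the core of a STAT-binding GAS element) and to the kB variant of ICAM1.
ICAM1, chr19:10270870-10271119: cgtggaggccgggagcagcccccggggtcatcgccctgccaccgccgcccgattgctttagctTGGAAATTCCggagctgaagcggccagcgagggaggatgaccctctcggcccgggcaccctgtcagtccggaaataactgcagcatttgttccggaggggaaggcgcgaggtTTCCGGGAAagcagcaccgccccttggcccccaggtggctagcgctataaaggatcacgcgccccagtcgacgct
CD83, chr6:14117006-14117255: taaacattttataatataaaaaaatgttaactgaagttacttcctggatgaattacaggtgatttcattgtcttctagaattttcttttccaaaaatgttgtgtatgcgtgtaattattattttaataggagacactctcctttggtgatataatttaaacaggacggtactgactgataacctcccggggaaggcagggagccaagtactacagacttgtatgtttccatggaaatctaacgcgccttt
CD274, chr9:5450292-5450541: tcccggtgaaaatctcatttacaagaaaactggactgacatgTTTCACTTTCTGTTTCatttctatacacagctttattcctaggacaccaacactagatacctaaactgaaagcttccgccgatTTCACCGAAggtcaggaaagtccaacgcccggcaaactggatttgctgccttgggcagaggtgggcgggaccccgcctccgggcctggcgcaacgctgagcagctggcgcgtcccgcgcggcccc

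The ICAM1 window held the kB variant, its first run of capitals, 187 to 178 bases before the start, a sequence found in 0.0989% of 27305 promoter windows, and a GAS core 75 to 67 bases before it. The variant is the long described kB site of this promoter, read from the window itself after the data were seen, so its presence in ICAM1 is no finding. The CD274 window held ISRE cores 208 to 199 and 202 to 193 bases before the start, which overlap, and a GAS core 125 to 117 bases before it. Among all windows 3.07% held an ISRE core and 6.78% a GAS core. Of the 9 ligand genes with a window, 1 held an ISRE core and 2 a GAS core. None of the 9 held the NF-kB consensus, which 5.05% of all windows held, and the looser core, GGG and CC with any 5 bases between, was in 8 of 9 and in 53.7% of all windows, either strand. The CD83 window had none of these letters and was AT-rich, at 34.8% GC against a median of 58% over all windows. These are matches of letters and not sites, and say nothing of binding in these cells.

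The PD-1 ligands share a locus, and 1 of the pair passed the test. CD274 (ENSG00000120217, chromosome 9, 5450503 to 5470566) lies 40004 bases before PDCD1LG2 (ENSG00000197646) on the same strand. CD274 was at 9.22, 7.71 and 10.7 CPM in treated libraries, against 5.53, 3.92 and 6.66 CPM in vehicle libraries, so the groups did not overlap but stood close. The rise was 1.72-fold (log2 fold change 0.78, SE 0.234, edgeR adjusted p = 0.0223). The call was lost without vehicle library 1 (edgeR adjusted p = 0.0643), treated library 1 (0.0660) or treated library 3 (0.0931), and with library totals as the scaling (0.0686). With the GC and length offsets the CD274 value was 0.12 (edgeR adjusted p = 0.535). PDCD1LG2 did not pass, at 2.15, 2.03 and 2.65 CPM in treated libraries, against 1.99, 2.19 and 2.40 CPM in vehicle libraries (log2 fold change 0.05, SE 0.215, edgeR adjusted p = 0.854). The groups overlapped, with 1 treated library above every vehicle library. The within-library log2 ratio of CD274 to PDCD1LG2 averaged 2.01 ± 0.0872 in treated and 1.26 ± 0.364 in vehicle libraries (difference 0.75, SE 0.216, exact two-sided permutation p = 0.1, adjusted 0.133). The 2 transcripts are nearly equal in GC content (40.9% and 41.9%) but not in length (3644 and 2365 bases). The ratio carries no offsets, with which CD274 was at 0.12 and PDCD1LG2 at -0.42. The flanking genes PLGRKT and RIC1, taken by position, also rose (log2 fold changes 0.60 and 1.45, edgeR adjusted p = 0.0184 and 0.00138), and with the offsets RIC1 was at 0.65 (edgeR adjusted p = 0.00970). PLGRKT lost its call without vehicle library 1 (edgeR adjusted p = 0.0793), treated library 1 (0.0699) or treated library 2 (0.0636), with library totals (0.0716) and with the offsets (0.420).

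CD276 was among the most abundant of the 10 genes and did not pass, at 162, 168 and 170 CPM in treated libraries, against 189, 165 and 158 CPM in vehicle libraries (log2 fold change -0.03, SE 0.109, edgeR adjusted p = 0.814). Its groups overlapped, and the treated libraries lay within the range set by the vehicle libraries. With the offsets CD276 was called higher, at 0.53.

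Of PVR and NECTIN2, which share receptors, PVR rose. PVR (ENSG00000073008) was at 177, 186 and 191 CPM in treated libraries, against 124, 138 and 107 CPM in vehicle libraries. Every treated library was above every vehicle library (log2 fold change 0.59, SE 0.121, edgeR adjusted p = 0.00453). NECTIN2 (ENSG00000130202) did not pass, at 93.8, 129.9 and 108 CPM in treated libraries, against 145, 164 and 119.9 CPM in vehicle libraries (log2 fold change -0.37, SE 0.163, edgeR adjusted p = 0.0851). Of its treated libraries, 1 lay within the vehicle range. The log2 ratio of PVR to NECTIN2 was above 0 in 3 of 3 treated libraries and below 0 in 3 of 3 vehicle libraries, averaging 0.75 ± 0.209 in treated and -0.21 ± 0.0451 in vehicle libraries (difference 0.97, SE 0.123, exact two-sided permutation p = 0.1, adjusted 0.133). NECTIN2 was called lower without vehicle library 3 (-0.49, edgeR adjusted p = 0.0245) and without treated library 2 (-0.51, edgeR adjusted p = 0.0482), and with library totals (-0.42, edgeR adjusted p = 0.0266). With the GC and length offsets the direction turned, and NECTIN2 was called higher (0.28, edgeR adjusted p = 0.0318).

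CD47 (ENSG00000196776) was at 68.1, 63.9 and 68.3 CPM in treated libraries, against 25.6, 24.02 and 32.3 CPM in vehicle libraries. The groups were well separated, with a 2.44-fold rise (log2 fold change 1.29, SE 0.142, edgeR adjusted p = 2.96e-04). With the GC and length offsets the CD47 value was 0.26 and the call was lost (edgeR adjusted p = 0.0948). MICA (ENSG00000204520) did not pass, at 58.3, 67.8 and 66.9 CPM in treated libraries, against 76.4, 89.7 and 66.6 CPM in vehicle libraries (log2 fold change -0.27, SE 0.139, edgeR adjusted p = 0.134). Its groups overlapped. Without vehicle library 3 it was called lower (-0.38, edgeR adjusted p = 0.0358), as with library totals (-0.31, edgeR adjusted p = 0.0370), and with the offsets it was at 0.15, not called. Its close relative MICB, with which reads could be split, was at 21.4 ± 0.962 CPM in treated and 20.9 ± 3.15 CPM in vehicle libraries, and the log2 ratio of MICA to MICB averaged 1.58 ± 0.0564 in treated and 1.89 ± 0.437 in vehicle libraries (exact two-sided permutation p = 0.3). In bulk RNA, fewer cells carrying a transcript and less of it per cell cannot be told apart.

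Exons of 4 of the 10 genes share at least 50 bases with another annotated gene, and whether strand was used in counting is not stated. For ICAM1 the larger partner was the antisense gene AC011511.5, at 2.88 to 3.91 CPM in treated and 0.184 to 0.438 CPM in vehicle libraries. For MICA it was HCP5, at 4.01 to 5.03 CPM in treated and 6.55 to 7.71 CPM in vehicle libraries. For PVR it was CEACAM19, at 1.33 to 1.93 CPM in treated and 1.10 to 1.26 CPM in vehicle libraries, and for NECTIN2 it was AC011481.2, at most 0.563 CPM in treated and 0.170 CPM in vehicle libraries. Each was well below its ligand gene, and the part of shared reads was not tested.

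Fold changes went with the GC content of transcripts, and which of the 10 were called depended on whether GC content and length were modelled. No fit modelled GC content without length, so the part of each in the changed calls was not tested. Across 18620 tested genes the log2 fold change fell with the GC content of the longest transcript (Spearman correlation -0.438, across genes, which are not independent replicates). In the lowest of 5 equal classes of GC content, which holds CD47 (38.4%) and CD274 (40.9%), 51.3% were called higher and 6.61% lower, and the median log2 fold change was 0.75, against 0.78 for CD274 and 1.29 for CD47. In the highest class, which holds CD276 (61.0%) and NECTIN2 (59.4%), the median was -0.74. ICAM1 and PVR lie in the class below it, with 16.4% called higher and a median of -0.38. A fit with an offset per library for GC content and length takes out such trends, and their source was not tested. With it 23.6% of 18620 genes were called higher and 26.8% lower.

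With these offsets ICAM1 was at 2.67 (edgeR adjusted p = 5.82e-07), CD83 at 3.88 (4.52e-06) and PVR at 0.95 (2.89e-05), all still higher. CD274, at 0.12 (edgeR adjusted p = 0.535), and CD47, at 0.26 (0.0948), no longer passed. CD276, at 0.53 (0.00181), and NECTIN2, at 0.28 (0.0318), were called higher, and CD58, at -0.81 (8.68e-04), was called lower. PDCD1LG2, at -0.42 (0.136), and MICA, at 0.15 (0.171), did not pass in either fit. Thus 5 genes were called higher in each fit, of which ICAM1, CD83 and PVR were in both.

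**Figure D2:**
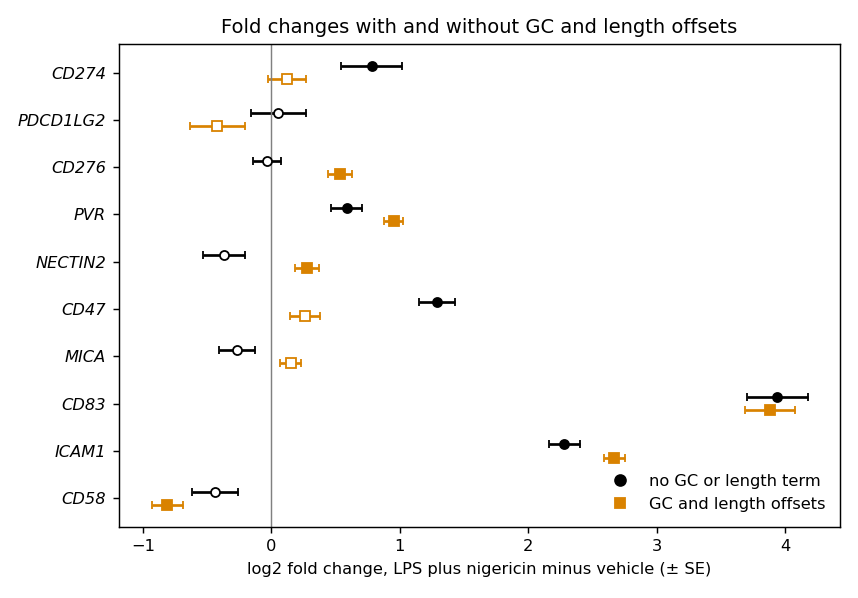
Log2 fold change of LPS plus nigericin over vehicle (x axis, ± SE) for each ligand gene, without (circles) and with (squares) offsets for GC content and length, filled where the adjusted p was under 0.05. ICAM1, CD83 and PVR are filled in both fits, and PDCD1LG2, CD276, NECTIN2 and MICA change sign between them.

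**Figure D3:**
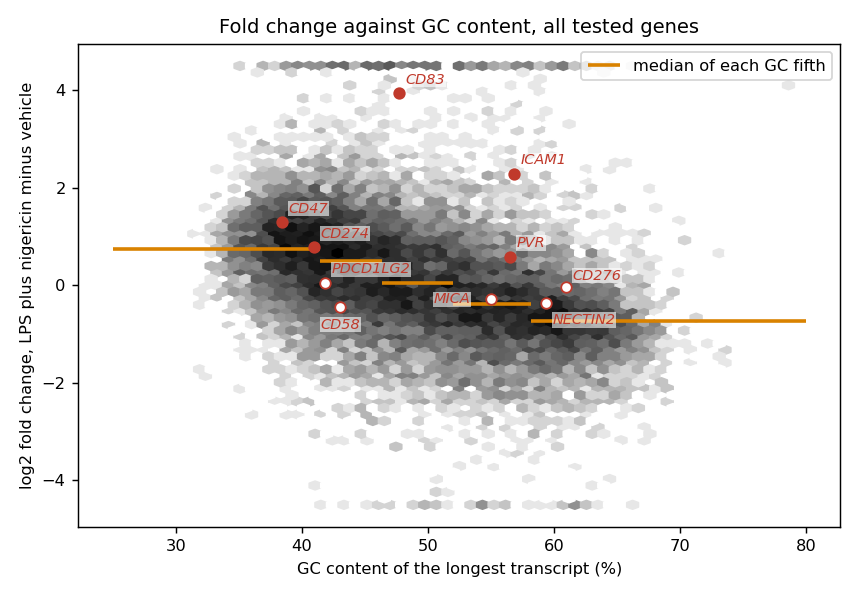
Log2 fold change against GC content for all tested genes with a GC value (grey, darker where genes are denser; values beyond the axis are drawn at its edge), with the median of each GC class (bars) and the ligand genes (red, filled where called). CD274, at 0.78, lies near the median of its class, 0.75, while ICAM1, PVR and CD83 lie well above theirs.

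Per unit of exon length the order of the 10 genes changed. In treated cells PVR was highest at 52.4 ± 2.07 CPM per kilobase, ahead of ICAM1 at 36.3 ± 0.321, and neither overlapped its neighbour in the order. CD276, NECTIN2 and MICA followed at 27.0 to 30.1 CPM per kilobase, overlapping as neighbours, though CD276 and MICA did not overlap each other. CD83 was at 11.2 ± 2.14, CD47 at 8.12 ± 0.299, CD58 at 6.93 ± 0.668, CD274 at 2.24 ± 0.369 and PDCD1LG2 at 0.962 ± 0.141, with no overlap between neighbours. In vehicle cells NECTIN2, PVR, MICA and CD276 led at 30.8 to 38.1 CPM per kilobase, overlapping as neighbours, and CD58, at 9.40 ± 1.98, overlapped ICAM1, at 7.47 ± 0.792. CD47 was at 3.32 ± 0.533, and CD274, PDCD1LG2 and CD83 were last at 1.31 ± 0.335, 0.928 ± 0.0864 and 0.731 ± 0.162 (SD, n = 3), each overlapping the next. With the longest transcript as the length, the means of CD276 and NECTIN2 stood above that of ICAM1 in treated cells, at 48.1 ± 1.21, 44.8 ± 7.38 and 41.3 ± 0.366 CPM per kilobase, but the libraries of NECTIN2 and ICAM1 overlapped. With that length CD83 and CD47, and CD47 and CD58, also overlapped in treated cells.

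**Figure D4:**
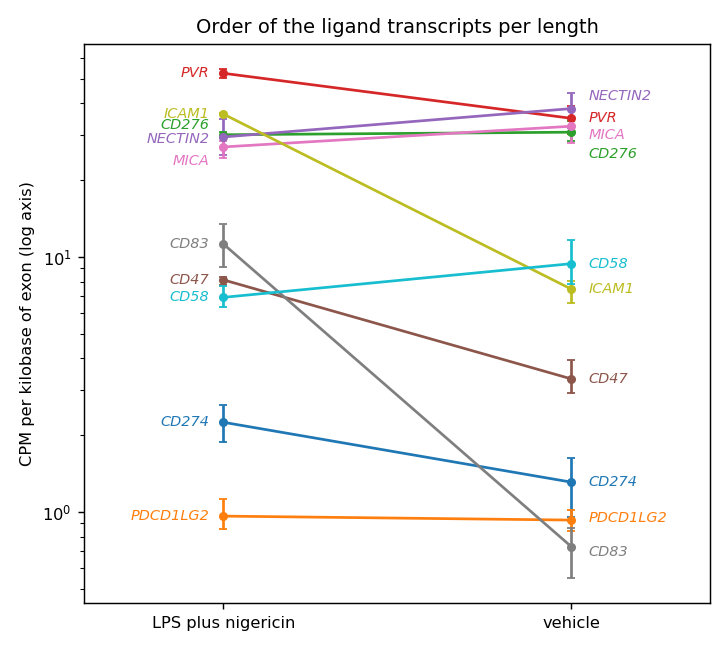
CPM per kilobase of exon (log axis) of each ligand gene after LPS plus nigericin (left) and vehicle (right), with points at the means, bars from the lowest to the highest library and a line joining the means of each gene. ICAM1 is at 36.3 on the left and 7.47 on the right, and CD83 at 11.2 on the left and 0.731, the lowest, on the right.

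Relatives of these ligands were called in both directions, and their counts stand beside 28.9% higher and 26.4% lower over all tested genes (23.6% and 26.8% with the offsets). Of 9 tested genes of the B7 and butyrophilin families, 2 rose, 1 fell and 6 did not pass, with a median log2 fold change of -0.09. With the offsets 1 was called higher and 3 lower. BTN2A1, a butyrophilin that takes part in gamma delta T cell recognition, rose to 47.6 ± 6.39 CPM in treated cells, against 22.0 ± 7.71 CPM in vehicle cells (log2 fold change 1.11, edgeR adjusted p = 0.00694). NCR3LG1, the B7-H6 ligand of the natural killer receptor NKp30, was called higher at 2.38 ± 0.804 CPM in treated and 1.27 ± 0.346 CPM in vehicle cells (0.91, edgeR adjusted p = 0.0446), a call lost in 11 of 16 alternative fits, those without vehicle library 1 or 3 or any treated library among them (edgeR adjusted p = 0.0562 to 0.179). VSIR, the VISTA gene, fell to 9.32 ± 0.507 CPM, against 16.1 ± 2.62 CPM in vehicle (-0.79, edgeR adjusted p = 0.00456). CD80 and CD86, the ligands of CD28 and CTLA-4, did not pass the count filter. CD86 was at 0 in every library and CD80 in 5 of 6.

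Of the 4 other nectin family and partner genes, 2 rose and 1 fell, with a median log2 fold change of -0.04. With the offsets 0 were called higher and 1 lower, with a median of -0.29. NECTIN1 fell to 18.4 ± 2.22 CPM in treated cells, against 38.9 ± 1.16 CPM in vehicle cells (-1.08, edgeR adjusted p = 4.95e-04), and NECTIN3 was called higher at 15.9 ± 0.899 CPM in treated and 8.01 ± 3.48 CPM in vehicle cells (0.99, edgeR adjusted p = 0.0293). The NECTIN3 value was 0.29 with the offsets (edgeR adjusted p = 0.233), and its adjusted p was 0.0542 without vehicle library 1 and 0.0901, 0.0697 and 0.0739 without treated library 1, 2 or 3. CADM1, the other gene that rose, was at 4.47 ± 0.301 CPM in treated and 2.89 ± 0.651 CPM in vehicle cells (0.63, edgeR adjusted p = 0.0409). With the offsets CADM1 was at -0.18 (edgeR adjusted p = 0.527). Of 8 tested genes of other inhibitory ligands, 1 rose and 3 fell, with a median of -0.08. With the offsets 2 were called higher and 4 lower. HLA-E, the most abundant of them, was at 551 ± 35.6 CPM in treated and 437 ± 75.7 CPM in vehicle cells. It was not called without the offsets (0.34, edgeR adjusted p = 0.0809) and was called higher with them (0.75, edgeR adjusted p = 3.15e-04). CLEC2D was called lower only with the offsets (-1.11, edgeR adjusted p = 0.0120). SIGLEC15, which restrains T cells, fell to 2.73 ± 0.0679 CPM, against 7.52 ± 1.0 CPM in vehicle (-1.46, edgeR adjusted p = 4.77e-04), and TNFRSF14, the ligand of BTLA, fell to 12.9 ± 2.13 CPM, against 33.5 ± 4.74 CPM in vehicle (-1.38, edgeR adjusted p = 5.47e-04), or -0.78 with the offsets, still lower. LGALS9, the galectin-9 gene, rose to 2.75 ± 0.692 CPM, against 1.58 ± 0.284 CPM in vehicle (0.80, edgeR adjusted p = 0.0356). The LGALS9 call was lost without vehicle library 1 or 3 (edgeR adjusted p = 0.124 and 0.0555) and without treated library 2 or 3 (0.114 and 0.122). Of 7 other NKG2D ligands, with a median of -0.10, ULBP2 alone passed, at 47.7 ± 2.49 CPM in treated and 32.1 ± 6.67 CPM in vehicle cells (0.57, edgeR adjusted p = 0.0197). The ULBP2 call was lost with library totals as the scaling and without vehicle library 1, treated library 1 or treated library 3 (edgeR adjusted p = 0.0830, 0.0626, 0.0668 and 0.0726). With the offsets ULBP2 was still higher (0.47, edgeR adjusted p = 0.0177) and ULBP1 was called lower (-0.87, edgeR adjusted p = 0.0125).

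Among 12 tested genes of leukocyte adhesion, 3 rose and 5 fell, with a median log2 fold change of -0.28. With the offsets 3 were called higher and 3 lower. CD44, the hyaluronan receptor, rose to 1883 ± 106 CPM in treated cells, against 915 ± 38.2 CPM in vehicle cells (1.04, edgeR adjusted p = 2.25e-04), and ALCAM, the ligand of CD6 on T cells, rose to 229 ± 4.93 CPM, against 85.0 ± 5.77 CPM in vehicle (1.43, edgeR adjusted p = 6.46e-05). With the offsets they were at 0.43 and 0.57 and still passed. The ICAM relatives split. ICAM4, which starts 352 bases after the annotated end of ICAM1, was called higher at 1.07 ± 0.651 CPM in treated and 0.140 ± 0.130 CPM in vehicle cells (2.96, SE 0.786, edgeR adjusted p = 0.0135). It also shares exon bases with AC011511.5, which stood above ICAM4 in treated libraries, at 2.88 to 3.91 CPM, and likewise rose (log2 fold change 3.35, edgeR adjusted p = 2.42e-04). The part of reads from ICAM1 or AC011511.5 was not tested. The ICAM4 value was 2.50 without treated library 2 (edgeR adjusted p = 0.0550), 3.998 without vehicle library 2 and 3.64 with the offsets. ICAM5, on the same chromosome, fell to 2.80 ± 0.314 CPM, against 7.63 ± 0.671 CPM in vehicle (-1.44, edgeR adjusted p = 5.04e-04), ICAM3 fell to 7.88 ± 1.20 CPM, against 18.1 ± 2.96 CPM in vehicle (-1.20, edgeR adjusted p = 0.00121), and ICAM2 fell to 5.98 ± 1.01 CPM, against 9.74 ± 2.96 CPM in vehicle (-0.70, edgeR adjusted p = 0.0411). With the offsets ICAM5 was at -0.64 and ICAM3 at -0.44, both still lower, and ICAM2 at -0.14 (edgeR adjusted p = 0.507). The ICAM2 call was also lost without vehicle library 1 or 2 (edgeR adjusted p = 0.0705 and 0.0880) or any treated library (0.0547 to 0.138). VCAM1 and SELE, adhesion molecules of activated endothelium, did not pass the count filter. SELE was at 0 in every library, and VCAM1 had 5, 4 and 22 counts in treated libraries and 0 in every vehicle library.

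Of 12 genes of the turnover, shedding or modification of such surface proteins, 7 rose, 3 fell and 2 did not pass. Over all tested genes 28.9% were called higher and 26.4% lower. The list is mixed and holds intracellular regulators (CDK4, SPOP, STUB1, COPS5) and the peptide transporter gene TAP1. Its median log2 fold change was 0.66, or 0.20 with the offsets. With the offsets 6 were called higher and 3 lower, against 23.6% and 26.8% over all genes. CMTM4 (0.11, edgeR adjusted p = 0.478) and STUB1 (-0.02, edgeR adjusted p = 0.841) then lost their calls. TAP1 was then called higher (0.81, edgeR adjusted p = 3.09e-04) and COPS5 lower (-0.72, edgeR adjusted p = 0.00837). ADAM17, a protease that sheds cell-surface proteins including ICAM1 and MICA, rose to 19.2 ± 6.10 CPM in treated cells, against 3.23 ± 0.884 CPM in vehicle cells (2.57, SE 0.294, edgeR adjusted p = 3.50e-04). Its relative ADAM10 rose to 86.2 ± 12.0 CPM, against 35.3 ± 9.44 CPM in vehicle (1.29, edgeR adjusted p = 0.00135), and CMTM6, which keeps PD-L1 at the surface, rose to 65.9 ± 5.33 CPM, against 27.7 ± 10.8 CPM in vehicle (1.25, edgeR adjusted p = 0.00481). MARCHF8, a ubiquitin ligase that removes surface proteins, rose to 19.0 ± 1.62 CPM, against 7.90 ± 0.499 CPM in vehicle (1.27, edgeR adjusted p = 3.06e-04). QPCTL, which modifies CD47 so that SIRP-alpha can bind it, fell to 16.5 ± 0.838 CPM, against 34.8 ± 7.23 CPM in vehicle (-1.08, edgeR adjusted p = 0.00138). With the offsets ADAM17 was at 1.56, MARCHF8 at 0.98, CMTM6 at 0.54 and QPCTL at -0.51, all still called, and ADAM10 at 0.12 (edgeR adjusted p = 0.252). Of the leukocyte receptors of the 10 ligands, of which 12 were chosen and 10 analysed here, 5 were tested, with a smallest edgeR adjusted p of 0.125 for ITGB2, and SIRPA, at 61.6 ± 4.30 CPM in treated and 70.3 ± 6.29 CPM in vehicle cells, was the only one above 1 CPM.

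**Figure D5:**
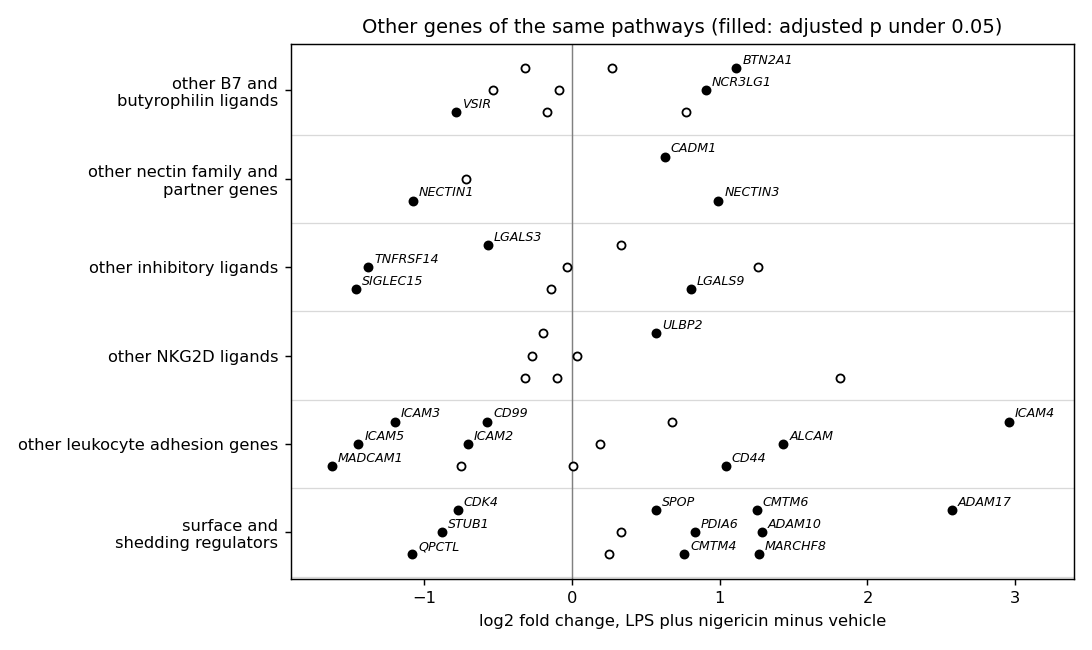
Log2 fold change of LPS plus nigericin over vehicle (x axis) for the tested genes of 6 related lists, 1 point per gene, filled and named where the adjusted p was under 0.05. Calls lie on both sides of 0 in each list but the NKG2D ligands, where only ULBP2, at 0.57, is filled.

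The genes whose 6 centred log2 CPM values lay nearest to those of ICAM1 were MAFF, IFT122P3 and NFATC2, at root mean square distances of 0.0869 to 0.106. Nearest to CD274 were USP1, STAM2 and ENSG00000250764, at 0.0704, 0.0740 and 0.0751, and 77 genes, these included, lay within 0.05 more than the last of these. With the offsets the log2 fold change was 0.09 for USP1, -0.11 for STAM2 and 0.88 for ENSG00000250764. The last was at a mean of 0.369 CPM in treated and 0.205 CPM in vehicle libraries. For ICAM1, 13 genes lay within 0.05 more than NFATC2. IFT122P3 was at a mean of 2.30 CPM in treated and 0.491 CPM in vehicle libraries. Shared regulation of these genes was not tested.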

How the data were processed

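The authors deposited raw counts per Ensembl gene, 1 column per library, per the file headers, and hg38 is the build per the submitters' processing notes. Aligner, counter, annotation release and strand setting were not stated in the labels or headers, and the labels name more than 1 company for RNA extraction. Columns were matched to samples by library name, with 0 left over, and 37840 identifiers matched a symbol. Genes were filtered with filterByExpr, scaled with TMM and tested with edgeR 4.0.16 in R 4.3.3 (robust quasi-likelihood F test, group only, Benjamini-Hochberg adjusted p under 0.05). Replicate pairs differed far beyond sampling noise. GC content, length and positions came from GENCODE 29 on GRCh38. The offsets are per-library loess fits (span 0.3) on GC content, then log length. Log2 ratios used a prior count of 0.5. Promoters are from RefSeq, GRCh38.p14, where PDCD1LG2 had no match.

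Alternatives were RLE factors, library totals, DESeq2 1.42.0, limma-voom (limma 3.58.1), other count filters, the replicate number as a block, the offsets, no mitochondrial genes, and leaving out each library. The tests were run on simulated counts first. The members, lists and tests were chosen with earlier results of these data known. By the naming rule, the 10 ligands, tested genes of the lists (at least the called gene with the smallest p in each direction) and the 3 nearest profiles of CD274 and ICAM1 could be named. Flanking and exon-sharing genes and list genes under the count filter fall outside it and were named after their values were seen. The kB variant and the calls by GC class were added after seeing the data.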

Additional observations from a re-analysis of the deposited data

How the results depend on the processing

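CD83, ICAM1 and PVR kept their call and direction in all 16 alternative fits. CD274 lost its call in 6 and CD47 in 2. Across fits that left out a library, 4 to 5 of the 10 genes were called higher and 0 to 2 lower. The genes called lower were 2 with library totals (NECTIN2 and MICA), and 1 with each of DESeq2 (CD58), the filter of 1 CPM in 3 libraries (CD58), the replicate block (NECTIN2, edgeR adjusted p = 0.0478), the GC and length offsets (CD58) and both together (CD58). With library totals CD274 was at 0.71 (edgeR adjusted p = 0.0686). PDCD1LG2 reversed to -0.0063 with library totals, to -0.42 with the offsets with or without the replicate block, and ranged from -0.076 to 0.12 without single libraries. CD276 reversed to 0.53 with the offsets and 0.54 with the replicate block added, and ranged from -0.096 to 0.043 without single libraries. NECTIN2 reversed to 0.28 and 0.27, MICA to 0.15 and 0.15, and KRT7 to 0.081 and 0.081 under the same fits. MICB reversed to -0.030 with library totals and ranged from -0.086 to 0.11 without single libraries. The cause was not tested. Leaving out single libraries, the difference in the ratio of CD274 to PDCD1LG2 ranged from 0.54 to 0.86, PVR to NECTIN2 from 0.88 to 1.08, ICAM1 to CD58 from 2.45 to 2.89 and MICA to MICB from -0.50 to -0.07. Same-numbered libraries did not deviate together (correlations of -0.02, 0.10 and -0.02 over 19170 genes), so the numbers are not taken as pairs, and the block left 5 genes called higher.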
